A study of Mus musculus with 8 samples.

Results

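The genes described here are 10 imprinted genes outside the Dlk1-Dio3 locus, out of the 21207 gene symbols named in all 8 single-nucleus libraries of mouse gastrocnemius, a calf muscle. They are Peg3, Igf2, H19, Grb10, Cdkn1c, Nnat, Mest, Kcnq1ot1, Airn and Asb4. The set was selected on the Peg3 UMI counts of myonuclei, which were lower in Old than in Young, so every difference between Old and Young is given as a description with no test. All 10 were named in all 8 libraries. A UMI is a tag that lets a captured RNA molecule be counted once.

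The mice were C57BL/6 and wild type in every group. Young mice were 3 months old and Old mice 20 months old. Running and Sedentary mice were 11 months old at the start and 13 months old at the end, and the Running mice were trained for 2 months on a treadmill at 9 m per min for 30 min a session. Each group had 2 libraries, replicate 1 made with 10X Genomics droplets and replicate 2 in a second library set made with another droplet system, and neither the sex nor the number of mice per library is given.

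The 64803 retained nuclei (of 65280) came from 10587 to 12991 nuclei per 10X library, with 23390969 to 44454427 UMIs, and 4228 to 4772 nuclei per library of the second set, with 4839878 to 9278034 UMIs. Any pair of 10X libraries shared 30 to 46 barcodes. Classes of nuclei were rebuilt from marker genes, and each name below means nuclei like that class by those markers. Old replicate 2 stood apart, with 4082 of its 4772 nuclei in unnamed clusters led by long genes and 379 myonuclei, and Sedentary replicate 1 had 2257 unnamed nuclei. Several results that rest on them are also given without them. At the myotendinous junction no fit without Old replicate 2 was run.

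An imprinted gene is transcribed mainly from the allele inherited from a particular parent, and the choice is held by DNA methylation set in the germ line. Peg3, Igf2, Nnat, Mest, Kcnq1ot1 and Airn are known to be expressed from the paternal allele, and H19, Cdkn1c and Asb4 from the maternal allele. Grb10 is maternal in most tissues and paternal in neurons. Many of these genes act on fetal growth, and several fall in level after birth. In adult skeletal muscle Peg3 is known as a marker of resident stem and interstitial cells. Parental alleles cannot be told apart in these counts.

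Sequence context is shown for the genes with the widest differences, Peg3, Nnat and Mest. It is the bases that precede a RefSeq start of each gene on GRCm38.p6, written along the strand of the gene. Each CG is in capitals, since CG is the site of the methylation that marks imprinted starts. The Peg3 stretch, chr7:6730432-6730577 on the minus strand, is the whole interval between the annotated starts of Peg3 and of Usp29, which runs the other way. The Nnat stretch, chr2:157560008-157560077 on the plus strand, ends at the start of Nnat and begins after the nearest exon of Blcap. The Mest stretch is chr6:30737800-30738049 on the plus strand. It precedes a later RefSeq start of Mest and lies inside the gene, which is annotated from chr6:30723547.
Peg3: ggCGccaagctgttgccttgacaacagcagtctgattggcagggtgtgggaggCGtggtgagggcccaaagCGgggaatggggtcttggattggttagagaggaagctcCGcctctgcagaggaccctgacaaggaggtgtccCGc
Nnat: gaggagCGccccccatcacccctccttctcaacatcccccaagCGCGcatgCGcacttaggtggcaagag
Mest: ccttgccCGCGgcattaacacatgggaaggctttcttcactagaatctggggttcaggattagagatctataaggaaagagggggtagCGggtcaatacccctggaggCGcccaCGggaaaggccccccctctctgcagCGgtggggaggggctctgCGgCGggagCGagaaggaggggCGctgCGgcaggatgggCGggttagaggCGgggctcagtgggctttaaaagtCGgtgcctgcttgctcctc

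The 146 bases before Peg3 held 5 CG, and 55.6% of 32851 RefSeq promoters held fewer in a window of that length and place. The 70 bases before Nnat held 4 CG (62.6% of promoters held fewer) and the 250 bases before that Mest start held 14 (70.6% held fewer). The letters TGCCGC, the core bound by ZFP57, a zinc finger factor that maintains methylation at imprinted starts, were sought on both strands. They occurred 2 times before that Mest start and 0 times before Peg3 and Nnat, against 8.68%, 5.61% and 2.98% of all promoters in windows of the same 3 lengths.

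Mest, H19 and Igf2 also carry microRNAs, printed here from RefSeq with bases 2 to 8, the seed, in capitals, as part of what these loci encode. Mature microRNAs are not measured in these libraries. Those of Mest lie in an intron (chr6:30741314-30741336 and chr6:30741354-30741375, plus strand) and those of H19 in its exons (chr7:142577112-142577133 and chr7:142577078-142577099, minus strand). Those of Igf2 lie in an intron (chr7:142654968-142654989 and chr7:142654932-142654952, minus strand). The 6 seeds differ from one another.
mmu-miR-335-5p: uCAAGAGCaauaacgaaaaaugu
mmu-miR-335-3p: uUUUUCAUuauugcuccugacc
mmu-miR-675-5p: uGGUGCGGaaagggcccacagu
mmu-miR-675-3p: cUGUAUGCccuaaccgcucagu
mmu-miR-483-5p: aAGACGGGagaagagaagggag
mmu-miR-483-3p: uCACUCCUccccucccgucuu

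Peg3, a zinc finger protein gene, lies at chr7:6703892-6730431 on the minus strand (GENCODE vM21, GRCm38). In myonuclei, the nuclei of the muscle fibers, it was far lower in Old than in Young in both library sets. Levels are UMIs per 1e6 UMIs (counts per 1e6, CPM) of the nuclei summed, with mitochondrial and ribosomal protein genes left out of the total. In the 10X set Peg3 was at 13.8 CPM in Old (306 UMIs in 5298 nuclei), 187 CPM in Young (4859 UMIs in 7272 nuclei), 321 CPM in Running and 72.1 CPM in Sedentary. In the second set it was at 7.40 CPM in Old, which rests on 3 UMIs in 379 nuclei, and at 84.3 CPM in Young, 19.1 CPM in Running and 16.9 CPM in Sedentary. Old was the lowest of the 4 groups in each set, and the 2 sets ordered Young and Running differently. Young was 13.5-fold higher than Old in the 10X set (95% interval 12.0 to 15.2) and 11.4-fold higher in the second (3.88 to 55.4). These intervals, like every interval below, cover counting error only.

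The fitted Old minus Young difference of Peg3 in myonuclei was -4.44 on the log2 scale (SE 0.73, edgeR over 8 libraries), -4.68 without Old replicate 2 and -4.53 without Sedentary replicate 1. That fitted size is beyond the fold differences found above within either library set alone. With only the 4 compared libraries the fitted difference was -3.98. The difference was smallest without Old replicate 1 (-3.31) and largest without Young replicate 1 (-5.31) among the left-out libraries, and -3.41 with libraries thinned to the shallowest total. Junctional myonuclei of the 10X set were low in Old as well. At the neuromuscular junction, where the nerve meets the fiber, Peg3 was at 11.3 CPM in Old, 202 in Young, 269.9 in Running and 156 CPM in Sedentary of the 10X set. At the myotendinous junction, where the fiber meets the tendon, the 4 levels were 33.3, 270.03, 684 and 163 CPM in the same order. The second set held few junctional nuclei, and its neuromuscular values rest on 2 UMIs in 19 Old nuclei (82.9 CPM) and 7 UMIs in 42 Young nuclei (85.7 CPM), so the difference was not seen there. Its myotendinous nuclei held 0 Peg3 UMIs in 25 Old nuclei, which allows up to 105 CPM, and 16 UMIs (70.1 CPM) in 113 Young nuclei. The fitted Old minus Young differences were -4.65 (SE 0.84, 7 libraries, without Old replicate 2) at the neuromuscular and -3.83 (SE 0.77) at the myotendinous junction on the log2 scale, in contrasts that called 0.235% of 6813 and 0% of 5638 genes by edgeR. Each was larger in size than the difference within the 10X set alone, which was -4.16 at the neuromuscular junction. In each of the 3 fiber classes of the 10X set, Old was the lowest library and Running the highest.

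**Figure D1:**
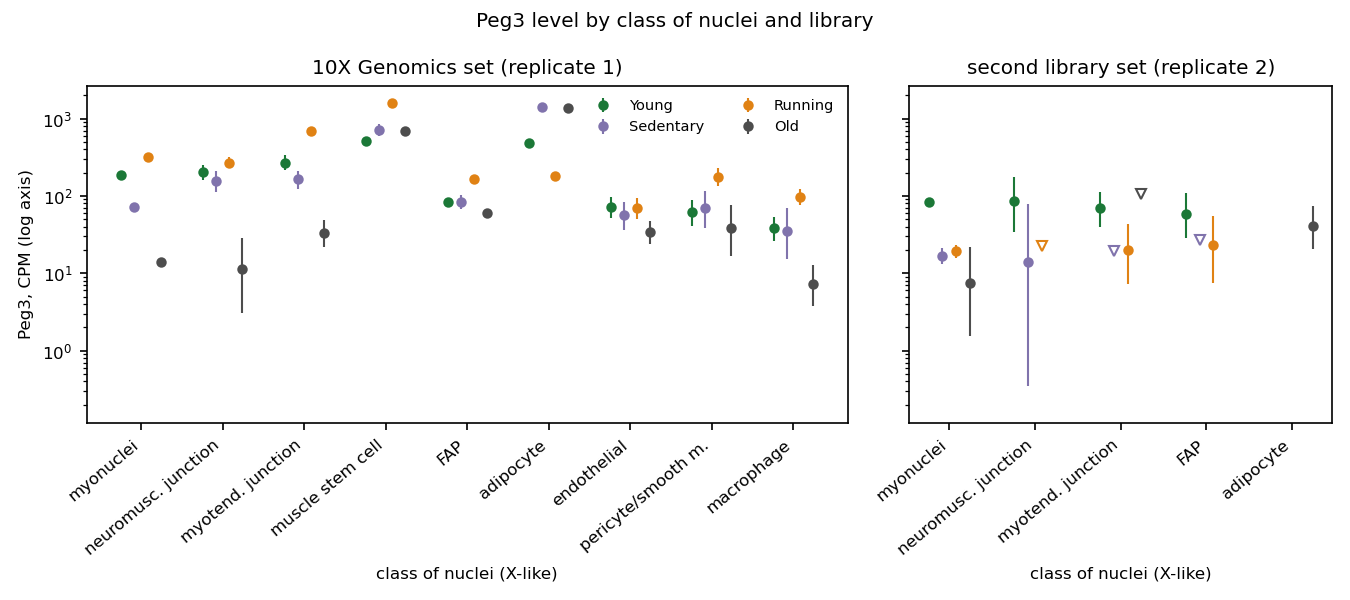
Peg3 level in CPM (log axis) by class of nuclei, 1 point per library, colored by group and split by library set, with 95% Poisson bars for counting error and open triangles at the limit of 3 counts where a sum holds 0 UMIs. In myonuclei the Old libraries sit lowest, at 13.8 and 7.40 CPM, while in adipocyte-like nuclei Old and Sedentary of the 10X set sit highest, at 1382 and 1398 CPM.

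The share of myonuclei with a Peg3 UMI gave the same order of groups within each set. With each nucleus thinned to 500 UMIs (none of these myonuclei was shallower), 0.547% of Old, 8.04% of Young, 13.5% of Running and 3.02% of Sedentary myonuclei of the 10X set held one. The unthinned shares were 3.74%, 33.9%, 43.3% and 9.07%, at median depths of 3751, 3267, 3513 and 2158 UMIs. Macrophage-like nuclei, in which Peg3 was among the lowest, gave thinned shares of 0.514%, 1.64%, 2.93% and 2.11% at median depths of 2312, 2179, 1907 and 1107 UMIs. For 3 macrophage-like nuclei too shallow to thin (1 in Old, 2 in Sedentary) no value was used. Their unthinned shares were 1.71%, 7.87%, 9.45% and 3.47%. The thinned macrophage shares of Old and Sedentary rest on 3 nuclei with a UMI each, and nuclei of 1 library are not replicates, so the classes are set side by side with no test. In the second set the thinned shares in myonuclei were 0.264%, 3.98%, 0.992% and 0.730%.

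Myonuclei were also split by the myosin heavy chain that led their cluster. Levels by library are given for Myh4 (the fastest fibers) and for Myh1 and Myh2. In Myh7-led (slow) myonuclei, with the 4 libraries of a set joined, Peg3 was at 46.9 CPM in 534 nuclei of the 10X set. In the second set it was at 18.2 CPM in 506 such nuclei. In Young of the 10X set Peg3 was at 198 CPM in Myh4-led myonuclei and 77.4 CPM in Myh1 and Myh2-led ones. In Running the pair was 399 and 103 CPM, and in Sedentary 84.7 and 56.1 CPM. Old showed 13.6 and 15.9 CPM, so Old was low both in Myh4-led myonuclei and in Myh1 and Myh2-led ones. In the second set the Myh4-led value was also the higher of the pair in Young (126 and 29.2 CPM), Running (21.99 and 8.76 CPM) and Sedentary (20.7 and 4.64 CPM).

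Class orders here and below are over the 9 classes of the 10X set with at least 20 nuclei in all 4 libraries. Outside the fibers Peg3 was highest in satellite cell nuclei and adipocyte-like nuclei. Muscle stem cell-like nuclei held 689 CPM in Old, 510.3 in Young, 1575 in Running and 711 CPM in Sedentary of the 10X set, so the stem cell class of Old was not below that of Young. Every one of these values was above the highest value of myonuclei (321 CPM). Adipocyte-like nuclei held 1382, 483, 179 and 1398 CPM in the same order. Old and Sedentary, the lowest in myonuclei, were the highest there. The remaining classes were lower, with means of 98.0 CPM (SD 46.4, n = 4) in fibro-adipogenic progenitors, 86.9 (SD 62.1) in pericytes and smooth muscle, 58.0 (SD 17.3) in endothelial and 44.5 (SD 37.8) in macrophage-like nuclei. Each class mean and SD is over the 4 libraries of the 10X set, 1 per group, so the SD holds differences between groups as well as between libraries. The ranges of neighboring classes in this order overlapped. In fibro-adipogenic progenitors the fitted Old minus Young difference was -0.92 on the log2 scale (SE 0.48, 7 libraries, without Old replicate 2), in a contrast in which 0.277% of 13721 genes were called. The 10X levels in that class were 59.6 CPM in Old and 82.8 CPM in Young.

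Over all nuclei the difference between Old and Young was smaller than in myonuclei. A level over all nuclei does not by itself tell fewer nuclei of a class from less RNA per nucleus. Peg3 over all nuclei of the 10X set was at 101 CPM in Old, 178 in Young, 315 in Running and 157 CPM in Sedentary, and in the second set at 16.7, 76.8, 19.1 and 16.9 CPM. Young was 1.75-fold higher than Old (1.69 to 1.82) in the 10X set and 4.59-fold higher (3.65 to 5.83) in the second. Adipocyte-like nuclei, 3.10% of Old and 1.87% of Young in the 10X set, supplied 62.9% of the Peg3 UMIs of Old and 8.48% of those of Young. In Running their part was 2.08% and in Sedentary, where they were 4.80% of nuclei, 50.2%. Myonuclei, 45.3% of the nuclei of Old and 61.7% of those of Young, supplied 7.78% of the Old and 69.2% of the Young total. They supplied 68.2% of the Running and 31.2% of the Sedentary total.

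**Figure D2:**
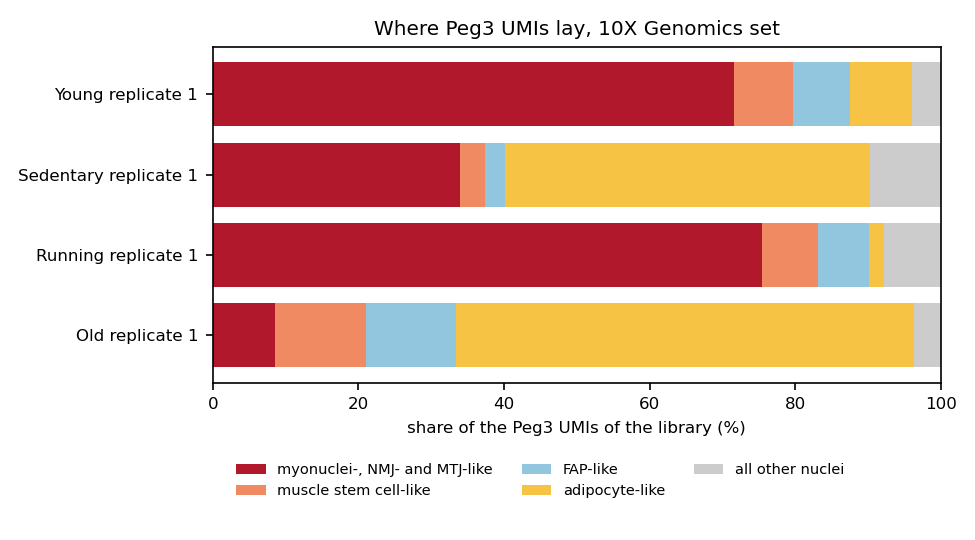
Share of each 10X library's Peg3 UMIs (percent, bars from 0) that came from each class of nuclei, with the 3 fiber classes (myonuclei and both junctions) joined. Adipocyte-like nuclei gave 62.9% in Old and 50.2% in Sedentary, and the fiber classes gave 71.6% in Young and 75.4% in Running.

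Nnat, a small membrane proteolipid gene, and Mest, a hydrolase-fold gene known as a marker of fat expansion, followed Peg3 in adipocyte-like nuclei. Nnat lies at chr2:157560078-157562522 on the plus strand inside Blcap, and Mest at chr6:30723547-30748465 on the plus strand, with its end over Copg2. In adipocyte-like nuclei of the 10X set Nnat was at 2516 CPM in Old, 854 in Young, 87.8 in Running and 2396 CPM in Sedentary. Mest was at 97.8, 2.43, 4.33 and 122 CPM, the Young value resting on 3 UMIs. For Peg3, Nnat and Mest alike, Old exceeded Young and Sedentary exceeded Running in the 10X set.

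The sizes differed between the 3 genes. Old was 2.86-fold higher than Young for Peg3 (2.62 to 3.14) and 2.95-fold higher for Nnat (2.75 to 3.15), while for Mest the ratio was 40.2 (13.5 to 197). Sedentary was 7.82-fold higher than Running for Peg3 (6.91 to 8.89), 27.3-fold for Nnat (23.1 to 32.5) and 28.2-fold for Mest (13.4 to 71.3). Each ratio compares 1 library with 1 library, with 362, 221, 296 and 508 adipocyte-like nuclei in Old, Young, Running and Sedentary, so there is no replicate check. The 7 adipocyte markers summed to 10279, 7367, 7110.4 and 7054 CPM in these nuclei, a narrower spread than that of the 3 genes, and none of the 7 was at 0. Adiponectin (Adipoq) was at 549, 478, 301 and 225 CPM, which put Sedentary lowest.

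In the second set only Old had enough adipocyte-like nuclei to give a level. The 9 nuclei of Running held 67 Nnat UMIs (3604 CPM, 2793 to 4577), the 7 of Sedentary held 11 (1131 CPM, 564 to 2023) and the 4 of Young held 0. In these few nuclei Running exceeded Sedentary and Old, the opposite of the 10X set. Its 253 nuclei held Nnat at 1563 CPM (421 UMIs), Mest at 40.8 CPM and Peg3 at 40.8 CPM, which for Peg3 is 11 UMIs. Adipoq there was at 40.8 CPM and the 7 markers summed to 4019.97 CPM, while the 10 myonuclear markers summed to 19439 CPM in these nuclei, against 6065 to 12718 CPM in those of the 10X set. The part of those markers in the Peg3 level was not tested. The high Peg3 level of the 10X Old library in this class was therefore not seen in Old replicate 2, while the high Nnat level was.

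Neighboring genes were read from a list of 65 other imprinted genes and cluster members. Zim1, a maternally expressed zinc finger gene next to Peg3, was at 175 CPM in Old, 30.8 in Young, 11.1 in Running and 175 CPM in Sedentary in adipocyte-like nuclei of the 10X set, the same 2 libraries high as for Peg3. In muscle stem cell-like nuclei Zim1 was at 163, 167, 401 and 226 CPM, highest in Running as Peg3 was. In myonuclei, where Peg3 was far lower in Old, Zim1 was at 7.46, 4.47, 9.63 and 8.88 CPM and did not follow Peg3. Blcap, which contains Nnat on the opposite strand, was at 272, 141, 87.2 and 236 CPM in adipocyte-like nuclei. Whether the counting used strand is not given, so reads of Nnat and Blcap cannot be told apart where they overlap, whereas Zim1 does not overlap Peg3. The same limit holds for Mest and Copg2, which overlap at the end of Mest on opposite strands. Copg2 was listed at 144, 182, 152 and 156 CPM.

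Outside adipocyte-like nuclei Nnat was low and uneven. Its class means in the other 8 classes of the 10X set ran from 19.3 CPM at the neuromuscular junction to 29.96 CPM in fibro-adipogenic progenitors, and their ranges overlapped. In myonuclei Nnat was at 27.3, 11.6, 10.9 and 32.5 CPM in Old, Young, Running and Sedentary, the same 2 libraries high as in adipocyte-like nuclei. Macrophage-like nuclei gave 30.1, 2.45, 16.2 and 66.7 CPM. In the second set Old myonuclei stood at 101 CPM against 2.20 in Young, 2.60 in Running and 1.23 CPM in Sedentary. The 7 adipocyte markers in myonuclei summed to 281, 189.8, 261 and 212 CPM in the 10X set and to 301, 121, 255 and 232 CPM in the second, and their part in these levels was not tested. The fitted Old minus Young difference of Nnat in myonuclei was 3.68 on the log2 scale (SE 1.20), and 0.80 without Old replicate 2.

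The growth genes of the set were mostly low. Igf2, the fetal growth factor, lies at chr7:142650766-142666816 and H19, a long non-coding RNA that shares its enhancers, at chr7:142575529-142578143, both on the minus strand. Igf2 over all nuclei was at 0.734 to 3.83 CPM in the 10X set and 1.96 to 3.64 CPM in the second. Its highest class means were in pericytes and smooth muscle (12.2 CPM, SD 8.53, n = 4) and endothelial nuclei (11.8 CPM, SD 11.4), and both ranges overlapped that of muscle stem cells. H19 over all nuclei was at 10.4, 13.02, 12.3 and 5.27 CPM in Old, Young, Running and Sedentary of the 10X set and at 12.5, 34.6, 11.3 and 10.5 CPM in the second. Young was the highest library in both sets. In myonuclei H19 was at 14.9 CPM in Old and 13.5 in Young of the 10X set but at 7.40 and 25.3 in the second, so the sets gave opposite directions there.

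Grb10, an adaptor that restrains insulin and IGF1 receptor signaling, lies at chr11:11930508-12038683 on the minus strand. It was lower in Old than in Young in myonuclei of both sets, at 104 against 194 CPM in the 10X set and 56.7 against 134 CPM in the second. Running and Sedentary were at 148 and 88.9 CPM in the 10X set and at 98.5 and 113 CPM in the second. The fitted Old minus Young difference of Grb10 in myonuclei was -1.27 on the log2 scale (SE 0.35), and -0.98 without Old replicate 2. Its highest class means in the 10X set were 432 CPM (SD 110.5) in fibro-adipogenic progenitors and 372 CPM (SD 58.7) in muscle stem cells, whose ranges overlapped. Macrophage-like nuclei were lowest at 41.8 CPM (SD 7.06).

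Cdkn1c, the cell cycle inhibitor p57, lies at chr7:143458339-143461050 on the minus strand. Over all nuclei it was at 3.07, 3.14, 3.06 and 0.993 CPM in Old, Young, Running and Sedentary of the 10X set and at 4.23, 6.74, 5.32 and 2.57 CPM in the second. Sedentary was the lowest library in both sets. Its mean level was highest in endothelial nuclei, at 19.3 CPM (SD 7.07, n = 4) against 0.863 CPM (SD 0.341) in myonuclei, and the 2 ranges did not overlap. Pericytes and smooth muscle held 14.4, 10.6, 18.4 and 0 CPM in Old, Young, Running and Sedentary of the 10X set. That range overlapped the endothelial one.

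Airn and Kcnq1ot1 are long antisense RNAs that silence neighboring genes in cis. Airn, at chr17:12741311-12860136 on the plus strand, overlaps Igf2r, and Kcnq1ot1, at chr7:143203458-143296549 on the minus strand, lies within Kcnq1. Reads of each antisense RNA and of the gene it overlaps cannot be told apart within the overlap, since the strand setting is not given, so the levels of all 4 are as listed. In the 10X set Airn was listed with means of 1865 CPM (SD 201) in muscle stem cells, 1836 CPM (SD 408) in pericytes and smooth muscle, 1514 CPM (SD 332) in fibro-adipogenic progenitors and 1144 CPM (SD 113) in endothelial nuclei. The 3 fiber classes had means of 756 to 774 CPM and ranges that overlapped. Every endothelial library was above every fiber class library, and every myonuclear library (lowest 612 CPM) was above every adipocyte-like one (highest 356 CPM). Macrophage-like nuclei had a mean of 263 CPM (SD 59.8).

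Class means of Kcnq1ot1 over the 9 ranked classes ran from 584 CPM (SD 86.3) in myonuclei to 291 CPM (SD 44.4) in macrophage-like nuclei. Lymphatic endothelial-like nuclei, not among the 9, were lower still, at 234, 211, 262 and 242 CPM. Over all nuclei it was at 482, 549, 656 and 461 CPM in Old, Young, Running and Sedentary of the 10X set and at 357, 772, 709 and 852 CPM in the second. Old was below Young in both sets, and Sedentary was lowest in 1 set and highest in the other. The overlapping genes are given with the same limit. Igf2r had its highest values in muscle stem cells (469, 270.5, 421 and 209 CPM in the 10X set), with a range that overlapped that of pericytes and smooth muscle. Kcnq1 was highest in macrophage-like nuclei (145, 201, 123 and 93.4 CPM).

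Asb4, a subunit of a ubiquitin ligase, lies at chr6:5383386-5433022 on the plus strand. Its highest class levels were in the 3 fiber classes, with 10X means of 87.8 CPM (SD 31.6) at the myotendinous junction, 77.1 CPM (SD 10.7) in myonuclei and 71.2 CPM (SD 14.7) at the neuromuscular junction. These 3 did not differ beyond their spread. The lowest myonuclear library (68.1 CPM) was above the highest pericyte and smooth muscle library (43.2 CPM), the next class. Adipocyte-like nuclei were lowest at 9.69 CPM (SD 5.52). Over all nuclei Asb4 was at 54.9, 50.9, 73.8 and 61.0 CPM in the 10X set and at 61.3, 93.1, 86.9 and 91.3 CPM in the second.

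Among the listed neighbors with the highest mean levels, Nctc1, a non-coding RNA beside H19 and Igf2, was at 808, 1223, 1515 and 798 CPM in myonuclei of Old, Young, Running and Sedentary in the 10X set and at 765, 1538, 1716 and 2128 CPM in the second. Among the 9 classes compared in the 10X set, none outside the fibers had an Nctc1 value above 444 CPM.

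Set side by side over all nuclei, the fitted Old minus Young difference was below 0 for 8 of the 10 genes and above 0 for Nnat (3.65, SE 1.23) and Mest (1.43, SE 0.78). The other values ran from -2.11 for Peg3 (SE 0.62) to -0.34 for Igf2 on the log2 scale. The median of the 10 was -0.71, beside 0.19 over all genes fitted. The list of 65 other imprinted genes and cluster members did not share this lean. Of its 53 genes that passed the filter, 32 were fitted higher in Old, with a median of 0.12. Within the library sets taken alone, Nnat and Mest were higher in Old in both, Airn, Cdkn1c, Grb10, H19, Kcnq1ot1 and Peg3 were lower in both, and Igf2 and Asb4 went opposite ways. The Old and Young levels of Cdkn1c in the 10X set, given above, were nearly equal. Without Old replicate 2 the values of Nnat, Mest and Airn were 2.04, 0.50 and -0.03, and Igf2 turned to 0.18. The rest stayed below 0, at -1.97 for Peg3, -0.85 for H19, -0.57 for Grb10, -0.37 for Kcnq1ot1 and -0.23 for Cdkn1c and Asb4. Igf2 also turned to 0.45 without Young replicate 1 and was 0.0065 with no scaling, and Peg3 was -0.89 without Young replicate 2. With edgeR's quasi-likelihood test 0% of all 20323 genes were called in this contrast (556 at an unadjusted p below 0.05, and DESeq2 called 0, with 1172 unadjusted), and the members' own p-values are not given. In myonuclei 8 of 10 were again below 0, with a median of -0.74 beside -0.04 over all genes, and 0% of 17979 genes were called (641 unadjusted, and DESeq2 called 5, with 728 unadjusted). Of the other listed genes, 18 of 47 were fitted higher in Old myonuclei, with a median of -0.28. Grb10, Kcnq1ot1 and Peg3 were lower in Old myonuclei of both sets. Cdkn1c was at 1.04 against 1.15 CPM in the 10X set, nearly equal. The second set held 0 Cdkn1c UMIs in 379 Old myonuclei against 28 (4.39 CPM) in Young, too few Old nuclei to give a direction. The fitted Cdkn1c difference in myonuclei was -0.77, and -0.21 without Old replicate 2. Without Young replicate 1 the Igf2 difference in myonuclei turned from -0.71 to 0.70.

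**Figure D3:**
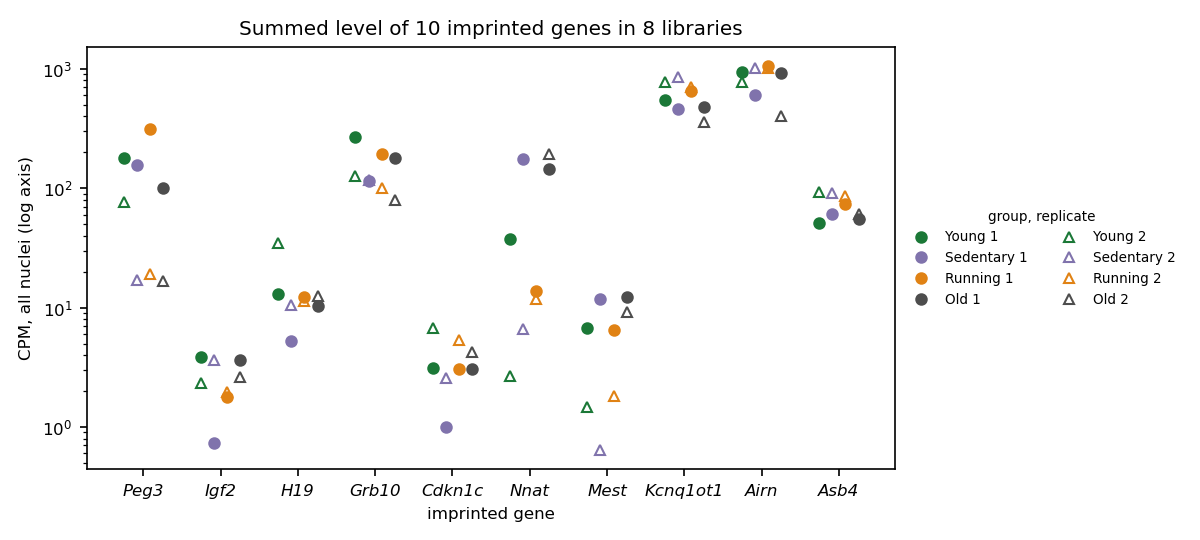
Level in CPM (log axis) of each of the 10 genes over all nuclei, 1 point per library, by group and library set. Old replicate 2 has the highest Nnat value of all libraries, 195 CPM, and Peg3 is lowest in the Old library of each set, at 101 and 16.7 CPM. In the second set the Peg3 values of Old and Sedentary are nearly equal.

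Whether treadmill running at 13 months changed the same genes is a comparison that did not enter their choice. Over all nuclei 0 of the 10 genes passed edgeR's quasi-likelihood test at an adjusted p of 0.05, beside 0% of 20323 genes (98 at an unadjusted p below 0.05, none of them a member). DESeq2 called 0 genes as well (392 unadjusted, none a member). The fitted Running minus Sedentary differences on the log2 scale were 0.72 for Peg3 (SE 0.59), 1.34 for Cdkn1c (SE 0.73), 0.71 for H19 (SE 0.56) and -1.67 for Nnat (SE 1.22). Without Sedentary replicate 1 Nnat turned to 0.36, without Sedentary replicate 2 it was called at -3.02 (adjusted p = 0.0202 by edgeR), and without Running replicate 1 Peg3 turned to -0.21. The other 6 lay between -0.14 (Igf2, SE 1.03) and 0.31 (Airn, SE 0.58). The median of the 10 was 0.15, beside -0.04 over all genes. Peg3, Cdkn1c and H19 were higher in Running in both library sets and the other 7 went opposite ways. The p-values measure the spread between these libraries, which may be technical, since the labels do not say that they came from separate mice.

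In myonuclei Peg3 was at 321 CPM in Running and 72.1 CPM in Sedentary of the 10X set, 4.45-fold higher (4.18 to 4.73), and at 19.1 and 16.9 CPM in the second, where the ratio was 1.13 (0.832 to 1.54). The fitted difference for Peg3 was 1.38 (SE 0.55) with an adjusted p of 0.9998 by edgeR, and it fell to -0.16 without Running replicate 1. Peg3 was the only 1 of 10 members at an unadjusted p below 0.05 in myonuclei, where 0 members and 0% of 17979 genes were called (211 unadjusted; DESeq2 0 called, 264 unadjusted). Airn, Cdkn1c, H19, Mest and Peg3 were higher in Running in both sets and the other 5 went opposite ways.

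In smaller classes fewer members had enough counts. At the myotendinous junction 6 of 10 passed the count filter, and 0 were called by edgeR, beside 0% of 5638 genes (170 unadjusted). The 2 members at an unadjusted p below 0.05 there were Peg3, with a difference of 1.92 (SE 0.59), and Nnat, with -4.38 (SE 0.92) and an adjusted p of 0.684 by edgeR. The second set held 22 Peg3 UMIs in this class over all its libraries. At least 1 of its Running and Sedentary libraries held 0, so the Peg3 value has no ratio in that set beside it. All 15 Nnat UMIs of Sedentary replicate 2 came from 1 nucleus of 142. In fibro-adipogenic progenitors 9 of 10 passed the filter and 0 were called, beside 0.146% of 13721 genes. That fit used 7 libraries and dropped Old replicate 2, which held under 20 of them. The 2 members at an unadjusted p below 0.05 by edgeR were Nnat and Peg3 (0.93, SE 0.43), beside 396 of 13721 genes. For Peg3 the second set held 15 UMIs in this class over all its libraries and again gave no ratio of Running to Sedentary. Nnat came nearest, at 11.4 CPM in Running and 60.4 in Sedentary of the 10X set and 0 UMIs in both libraries of the second, with a difference of -2.43 (SE 0.63) and an adjusted p of 0.0629 by edgeR. At the neuromuscular junction, also in 7 libraries, 7 of 10 passed and 0 were called, beside 0.294% of 6813 genes.

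**Figure D4:**
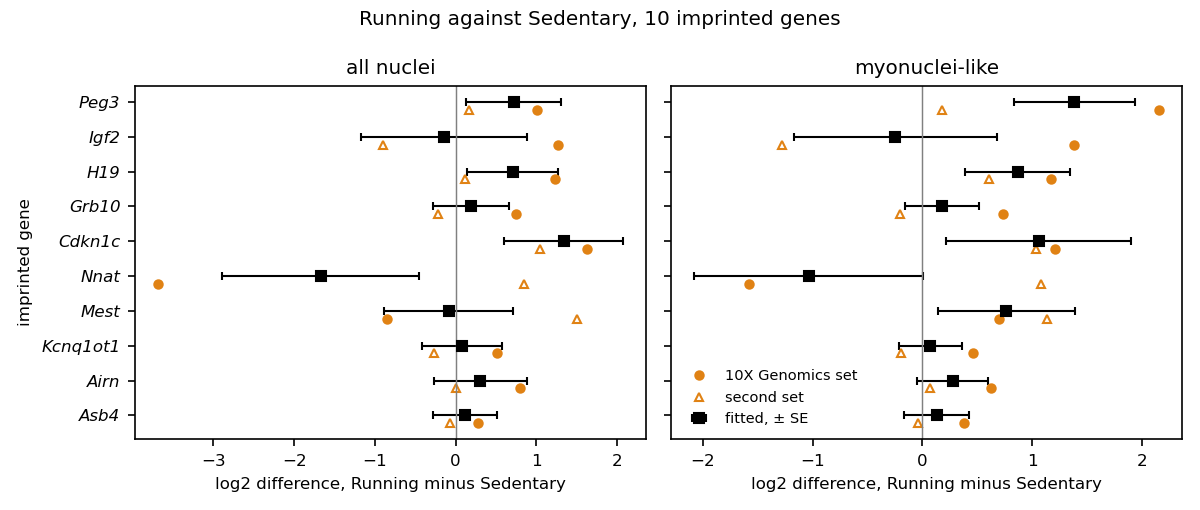
Running minus Sedentary difference (log2) of each of the 10 genes over all nuclei and in myonuclei, with the fitted value and its SE as a square with bars and the 10X and second sets as separate points. For Peg3 the fitted value is 0.72 over all nuclei and 1.38 in myonuclei, and no member passed the test.

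Of the 65 other imprinted genes and cluster members 53 passed the count filter over all nuclei, and 0 were called between Running and Sedentary. Of these, 25 were fitted higher in Running, with a median of -0.03 on the log2 scale beside -0.04 over all genes.

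The genes whose level most followed Peg3 over 36 sums of the 10X set (9 classes in 4 libraries) were Tln2, with a Pearson r of 0.77 on log2(CPM + 1), Ltbp3 (0.72), Gm16759, Usp29 and Mir100hg (0.69 each), among 9963 genes with a mean of at least 10 CPM. The sums share libraries and classes, so these are descriptions. Over 20 sums of the second set the 5 values were -0.15, -0.46, -0.23, 0.00 and -0.24. Those sums were smaller, with as few as 4 nuclei (adipocyte-like, Young). They held no muscle stem cell, endothelial, macrophage or pericyte class, so they cannot show whether the likeness holds in that set. Usp29 is the gene that starts opposite Peg3 across the stretch printed above.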

How the data were processed

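Single nuclei of gastrocnemius were profiled in 8 libraries, 2 for each of Old, Young, Running and Sedentary, grouped by the sample titles. Each file deposited by the authors was a filtered matrix of raw UMI counts. Per the labels, Cell Ranger 6.1.2, Seurat 4.1.1 and mm10 were used. File headers of the second set name PISA. Whether intronic reads or strand were used in counting is not given in the sources used here. The members and gene lists were chosen with earlier results of these data known. Replicate numbers follow deposition order and pair no samples.

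Nuclei with 200 to 6000 genes and under 6% mitochondrial counts were kept, and doublets stayed in. Each library set was clustered on its own without the 10 genes (scanpy 1.11.5, leidenalg 0.10.2), and clusters were named from marker lists, with limits set after the clusters had been seen. Counts were summed per library and class, leaving out 12 mitochondrial and 84 ribosomal protein genes. All genes were fitted with edgeR 4.0.16 (quasi-likelihood F-test, TMM, filterByExpr, Benjamini-Hochberg, threshold 0.05) with group and library set as terms, in classes with at least 20 nuclei per library. The fit was also run on simulated counts with known changes, whose recovery is not given here. With 2 libraries a group and 3 residual degrees of freedom over all nuclei, a lack of calls does not show a lack of change. Ratios between 2 libraries carry exact 95% intervals. Total UMIs per library are given with the results and limit the precision. Alternatives were RLE or no scaling, DESeq2 1.42.0, no count filter, no library set term, the 4 compared libraries alone, each library left out, all deposited nuclei, fewer doublets, thinned libraries, coarser clusters, named clusters and, added after seeing the data, no clusters led by long genes. All 10 members are named. Of the listed neighbors, at most 3 per cluster, those with the highest mean level, could be named. Promoter sequences were found for 8 of the 10 genes.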

Additional observations from a re-analysis of the deposited data

How the results depend on the processing

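No member was called for Running against Sedentary in any alternative but 1, over all nuclei without Sedentary replicate 2, where 1 of the 10 was (Nnat, -3.02 on the log2 scale, adjusted p = 0.0202 by edgeR, with 423 genes called). Without a replicate block the count stayed at 0 over all nuclei (12 genes at an unadjusted p below 0.05), and no call changed. Over all genes 0 were called over all nuclei and in myonuclei, but 81 with only 4 libraries and 423 without Sedentary replicate 2 over all nuclei, and in myonuclei 1 with only 4 libraries, 1 without Running replicate 2 and 124 without Sedentary replicate 2. The listed imprinted genes stayed at 0 called. Leaving out 1 library at a time, the Old minus Young difference of Peg3 ran from -2.99 to -0.89 over all nuclei (the latter without Young replicate 2) and from -5.31 to -3.31 in myonuclei. In myonuclei it was -4.23 with no scaling and with DESeq2, -3.83 with no replicate block, -3.98 with only 4 libraries and -3.41 in thinned libraries, all with the same sign.

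Running minus Sedentary differences changed sign as follows, and the cause was not tested. Over all nuclei Peg3 was -0.21 without Running replicate 1 (from -0.21 to 1.34 over the left-out libraries). Without Sedentary replicate 1, Grb10 was -0.42 (to 1.03), Nnat 0.36 (from -3.03), Mest 1.54 (from -0.82), Kcnq1ot1 -0.43 (to 0.75), Airn -0.33 (to 1.26) and Asb4 -0.13 (to 0.39). Mest was also 0.012 with RLE scaling, 0.024 with only 4 libraries, 0.15 in thinned libraries and 0.20 without Running replicate 1. Igf2 was 0.35 with only 4 libraries, 0.019 in thinned libraries, 0.022 without Old replicate 1, 0.012 without Old replicate 2 and 1.72 without Sedentary replicate 2 (from -1.29). In myonuclei Peg3 was -0.16 without Running replicate 1 (to 2.41). Without Sedentary replicate 1, Grb10 was -0.32 (to 0.84), Nnat 1.76 (from -1.92), Kcnq1ot1 -0.24 (to 0.48; -0.043 without Running replicate 1), Airn -0.11 (to 0.80) and Asb4 -0.049 (to 0.38; -0.29 in thinned libraries). Igf2 was 0.095 with only 4 libraries, 0.13 without Running replicate 2 and 1.57 without Sedentary replicate 2 (from -1.54). Cdkn1c and H19 kept a positive sign in every alternative run. Groups of 2 libraries are too small to test whether a library stands apart from its group. Igf2, Cdkn1c and Mest, at a few CPM over all nuclei, are limited by depth.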
